A study of Mus musculus with 9 samples.

Results

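The comparison described here sets a single Sox10 knockout clone of BG2 cells, called clone 2, against the unedited BG2 population. It rests on 6 of the 9 libraries of the series, 3 of clone 2 and 3 of the control, and on all 13918 of 24594 listed genes that had enough counts to be tested. BG2 is a line from a mammary tumour, labelled with the strain MMTV-NeuIresCre and the cell type Mammary Epithelial. In that strain the mouse mammary tumour virus promoter drives the oncogene Neu together with Cre recombinase in mammary epithelium, and the cells of all groups carry this transgene. The control, also called unedited cells here, is a wild-type bulk population whose library names hold NTC. Clone 2 was expanded from a population edited by CRISPR with guides against the open reading frame of Sox10 in exon 3. A further knockout clone, clone 1, with 3 libraries, is used where a value of clone 2 is set against another clone.

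All 3 libraries of a group are technical replicates by their labels, so the standard deviations and p-values below measure a technical spread and not that between clones. The labels do not say at which step the replicates parted. Clone 2 is 1 clone and the control is a mixed population, so loss of Sox10, growth as a single-cell clone and other changes carried by this clone cannot be told apart. Libraries held 65805296 to 83282841 counts. Replicate 1 stood apart in each group: its chi-square per gene against replicates 2 and 3 was 25.2 to 49.2, and that between replicates 2 and 3 was 5.47 to 9.94, where counting error alone gives about 1. Values are CPM, counts scaled to a common library total by TMM, given library by library in replicate order or as mean ± SD (n = 3 libraries of each group). Differences are log2 fold changes ± standard error from edgeR's quasi-likelihood fit, called at an adjusted p under 0.05, and a value with ± and no unit is such a log2 fold change of clone 2 against the control unless clone 1 is named. A harder call, glmTreat, asked whether a change exceeded 2-fold.

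SOX10 is a transcription factor of the SoxE group. It is best known from the neural crest, from which it directs Schwann cells and melanocytes, and it is also active in mammary progenitor and basal cells. Epithelial cells are held together by claudins, cadherins and desmosomes, and cells that lose these in an epithelial-to-mesenchymal transition commonly gain matrix proteins, vimentin and repressors of the Snail and Zeb families. These repressors bind E-boxes, short DNA motifs, of which CACCTG is the form they are best known for.

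In transcript Sox10-203, with 5 exons, exon 3 holds the start codon of Sox10 (chr15:79163289-79163794 on GRCm38, minus strand). In Sox10-201, with 4 exons, exon 3 lies at chr15:79159135-79159403, and the labels do not say which transcript is meant. The first 120 coding bases of Sox10-203 are shown because they open the reading frame within that exon, with the start codon in capitals (chr15:79163597-79163716).
Sox10 coding start: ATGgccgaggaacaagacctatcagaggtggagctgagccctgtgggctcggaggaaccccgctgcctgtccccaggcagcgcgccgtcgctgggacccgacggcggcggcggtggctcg

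Sox10 itself (Entrez ID 20665, chromosome 15, 79154913 to 79164490 on GRCm38) was read to check the group labels. Gene counts do not show the edit itself, and how the RNA was lost was not tested. Sox10 was counted 16660, 21437 and 26038 times in the control libraries and 0, 2 and 2 times in clone 2. The mean fell from 285 ± 40.9 CPM in unedited cells to 0.0174 ± 0.01505 in clone 2, 16964-fold lower with a 95% counting interval of 6625 to 62263 (edgeR adjusted p = 6.56e-12). No clone 2 library overlapped the control.

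Across all genes, 10363 of 13918 (74.5%) differed between clone 2 and the control. Of these 5194 (37.3%) were higher in clone 2 and 5169 (37.1%) were lower, and the median log2 fold change of all genes was -0.003. By glmTreat 1692 genes (12.2%) were higher by more than 2-fold and 1694 (12.2%) were lower. The counts of gene lists below are read against those 37.3% and 37.1%, and the lists were not tested as sets. List medians nearer to 0 than 0.1 turned sign or moved by over 1.5 times under some alternatives, so they give no direction. Clone 2 also differed from clone 1 in 8015 genes (57.6%), and 1185 (8.51%) differed by more than 2-fold. A gene is called distinct here when it passed glmTreat in the same direction against the control and against clone 1: 310 genes (2.23%) were distinctly higher and 219 (1.57%) distinctly lower. These 2 contrasts share the clone 2 libraries. Transcripts also went to silence: 97 genes with at least 5 CPM in unedited cells were without counts in clone 2. Of these 60 were at 0 in clone 1 as well and 3 stood at 1 CPM or more there. In the other direction 6 genes without counts in unedited cells reached 5 CPM or more in clone 2. Of these 6 genes 4 stood at 1 CPM or more in clone 1 and 0 were without counts there. Where a group had 0 counts, folds are bounds against a floor of 3 counts in that group (0.0127 CPM for clone 2 and 0.0134 CPM for the control), and where a group had 1 to 9 counts they carry an exact counting interval. Intervals and floors cover counting error only.

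Markers of cell types were read before the gene lists. The summed level of 10 epithelial markers was 9880 to 11647 CPM in the control libraries and 1370 to 1553 CPM in clone 2, with Epcam and Esrp1 at 0 counts. By test 9 of the 10 were lower and 1, the mucin gene Muc1 at 0.385 ± 0.0338 CPM in unedited cells and 0.7004 ± 0.0989 in clone 2, was higher; that call was lost when any of 5 of the 6 libraries was left out (log2 fold change 0.753 to 0.901). Thus the labelled cell type matched the control, while Epcam, Esrp1, Cldn3, Cldn4 and Cldn7 were at or near 0 in the clone. Krt7 and Cdh1 fell but kept 5.69 and 16.2 CPM there. The luminal keratins Krt8 (2397 ± 199.5 CPM in unedited cells and 788 ± 54.01 in clone 2) and Krt18 (2308 ± 266 CPM in unedited cells and 642 ± 37.3 in clone 2) made up most of what was left. The sum of 9 fibroblast markers was 30.4 to 36.0 CPM in the control and 136 to 150.3 CPM in clone 2, carried by the receptor gene Pdgfra (7.84 ± 0.392 CPM in unedited cells and 107 ± 4.13 in clone 2), while Thy1, Lum, Dcn and Fap were at 0 in clone 2. The sum of 10 immune markers was 7.38 to 12.5 CPM in the control and 44.0 to 46.3 CPM in clone 2. It was carried by the lysosomal glycoprotein gene Cd68 (10.1 ± 2.78 CPM in unedited cells and 38.7 ± 0.987 in clone 2) and the lysozyme gene Lyz2 (0.0277 ± 0.0271 CPM in unedited cells and 6.37 ± 0.955 in clone 2), and Ptprc, Cd3e, Adgre1 and Tyrobp were at 0 in clone 2. Endothelial markers summed to at most 1.09 CPM in clone 2, with Cldn5, Emcn and Tie1 at 0. Of 6 adipocyte markers Fabp4 (0.604 ± 0.0914 CPM in unedited cells and 8.65 ± 1.04 in clone 2) carried the sum, 7.94 to 9.92 CPM in clone 2 against 0.555 to 0.730 CPM in the control, and Adipoq and Plin1 were at 0. The part of such cells in the results below was not tested. In bulk RNA, fewer cells that express a gene and less RNA per cell cannot be told apart.

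The fall of epithelial adhesion is given briefly. Among the genes of epithelial junctions and their regulators, 2 of 42 tested genes were higher in clone 2, 40 lower and 0 did not pass (median log2 fold change -4.34). Epcam, an adhesion molecule of epithelial cells (Entrez ID 17075; chromosome 17, 87635979 to 87651127 on GRCm38), stood at 648, 667 and 667 CPM in unedited cells and had no counts in any library of clone 2, at least 52167-fold lower. Cldn7, a tight junction claudin, stood at 220.4, 240.5 and 247 CPM in unedited cells and 0, 0.0265 and 0 in clone 2, 28026-fold lower with a 95% counting interval of 7758 to 231424. Patj, a scaffold of the Crumbs polarity complex, stood at 130.2, 150.1 and 149 CPM in unedited cells and had no counts in any library of clone 2, at least 11340.2-fold lower. Control and clone 2 libraries lay far apart for all 3 genes. Outside the junctions, the steepest falls included those of Fads2, a desaturase that makes polyunsaturated fatty acids (18546-fold lower with a 95% counting interval of 7947 to 57119), and of the lipoxygenase gene Alox12e (at least 17879-fold lower). They also included Rab11fip4, an adaptor of recycling endosomes (at least 17114-fold lower), the protease inhibitor gene Spint1 (16881-fold lower with a 95% counting interval of 6593 to 61958) and Mab21l4 (9869.7-fold lower with a 95% counting interval of 3854 to 36226). The exceptions on the junction list were Ppl, a desmosomal linker, at 1.505 ± 0.05, and Pard3, a polarity scaffold, at 0.18 ± 0.06. The call of Pard3 was lost without control replicate 1, where its log2 fold change was 0.117 (edgeR adjusted p = 0.0792), and without clone 2 replicate 2, where it was 0.160 (edgeR adjusted p = 0.0532).

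RefSeq promoters on GRCm38.p6, from 250 bases before to 50 after each annotated start, were matched to 10997 of the 13918 tested genes, 13898 promoters in all. CACCTG on either strand occurred in 18.5% of these promoters, in 27.9% of those of genes lower by glmTreat and in 18.0% of those of genes higher by glmTreat. Among promoters of distinctly lower genes it was in 48 of 218. ACAAAG, the core letters that Sox proteins are known to bind, occurred in 14.3% of all promoters, 17.5% of those of lower genes and 15.1% of those of higher genes, and TGACTCA, the AP-1 site, in 4.16%, 5.85% and 6.15%. Of the 12 genes that fell most, 9 had a promoter in the table, and Epcam, Cldn3, Cldn7 and Patj each had 1 with at least 1 match. A further promoter of Cldn7 and 2 of Patj had none. The next 3 promoters, with matches in capitals (CAGGTG is the motif on the other strand), show where the letters lie in genes that went to 0 or near 0 counts. Epcam held matches that began 187 and 19 bases before the annotated start, Cldn7 97 and 57 bases before it, and Patj 19 bases before and 9 and 37 bases after it.
Epcam (GRCm38, chr17:87635729-87636028, plus strand): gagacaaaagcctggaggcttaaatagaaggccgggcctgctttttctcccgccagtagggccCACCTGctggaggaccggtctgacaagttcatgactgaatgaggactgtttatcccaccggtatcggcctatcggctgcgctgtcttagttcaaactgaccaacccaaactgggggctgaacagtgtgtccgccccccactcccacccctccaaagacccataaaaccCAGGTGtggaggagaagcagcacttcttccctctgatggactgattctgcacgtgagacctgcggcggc
Cldn7 (GRCm38, chr11:69965171-69965470, plus strand): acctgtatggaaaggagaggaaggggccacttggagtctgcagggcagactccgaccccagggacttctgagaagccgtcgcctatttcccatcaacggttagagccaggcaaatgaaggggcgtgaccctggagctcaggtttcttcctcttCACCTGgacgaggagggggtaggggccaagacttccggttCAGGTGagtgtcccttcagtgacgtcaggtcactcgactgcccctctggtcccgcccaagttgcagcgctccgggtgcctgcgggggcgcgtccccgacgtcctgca
Patj (GRCm38, chr4:98395576-98395875, plus strand): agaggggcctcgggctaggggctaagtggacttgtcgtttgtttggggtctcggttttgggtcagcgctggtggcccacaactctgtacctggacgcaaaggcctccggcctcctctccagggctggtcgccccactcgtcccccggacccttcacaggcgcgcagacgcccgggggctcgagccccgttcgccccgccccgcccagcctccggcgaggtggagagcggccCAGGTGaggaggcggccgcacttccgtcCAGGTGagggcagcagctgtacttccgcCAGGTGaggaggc
A match is a description of the letters and not a site shown to be bound. The promoters of Fads2, Alox12e, Spint1, Mab21l4 and Nkd2 held no such letters in this window.

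Among the 46 gene lists, the highest median was that of innate defence transcripts, many of which the liver makes in the acute phase. Single genes outside this list, such as Slc6a12 and Vmn2r79 below, rose as steeply as its top members. Of the acute-phase and innate defence proteins, 21 of 24 tested genes were higher in clone 2, 3 lower and 0 did not pass (median log2 fold change 4.28). Saa3, a serum amyloid A (Entrez ID 20210; chromosome 7, 46711998 to 46719615 on GRCm38), stood at 1.302, 1.33 and 1.47 CPM in unedited cells and 1088, 1014 and 999 in clone 2, a log2 fold change of 9.56 ± 0.10. Nos2, the inducible nitric oxide synthase (Entrez ID 18126; chromosome 11, 78920787 to 78960226 on GRCm38), stood at 0.116, 0.135 and 0.408 CPM in unedited cells and 353, 326 and 339.8 in clone 2, 10.53 ± 0.19 on that scale. Hp, which encodes haptoglobin, a binder of free haemoglobin, stood at 0.535, 0.555 and 0.532 CPM in unedited cells and 208, 186 and 187 in clone 2, a change of 8.48 ± 0.08. No clone 2 library of these 3 genes came near a control library, and edgeR's adjusted p-values were 1.10e-13, 1.92e-12 and 1.10e-13.

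Further members had next to no counts in the control. Saa1 and Saa2, paralogs that can share reads, went from 0 counts to 8.93, 6.56 and 7.89 CPM and 6.67, 5.25 and 5.35 CPM in clone 2, at least 584-fold higher and at least 431-fold higher. Wfdc21, a small secreted protein with a protease inhibitor fold, had 1 count in the control and 18.9, 17.4 and 16.1 CPM in clone 2, 3919.6-fold higher with a 95% counting interval of 703 to 154853. Among members that were already abundant, Lcn2, an iron-siderophore binder of innate defence, rose from 1770.1 ± 88.2 CPM in unedited cells to 3522 ± 198 in clone 2 (0.99 ± 0.06). Slpi, an inhibitor of neutrophil elastase, rose from 546 ± 44.5 CPM in unedited cells to 1143 ± 29.8 in clone 2 (1.06 ± 0.06). Members that fell included Pglyrp1, a peptidoglycan recognition protein, from 152 ± 17.00 CPM in unedited cells to 0.5997 ± 0.134 in clone 2 (-7.99 ± 0.14), and the lipopolysaccharide co-receptor gene Cd14 (-0.55 ± 0.05). Of the list, 6 genes were distinctly higher in clone 2 (Saa1, Saa3, Nos2, Serpina3g, Serpina3n and Wfdc21). Against clone 1, Saa3 was higher by 2.86 ± 0.07, Nos2 by 2.04 ± 0.11, Wfdc21 by 1.796 ± 0.12 and Saa1 by 1.86 ± 0.16 on the log2 scale, while Saa2 differed by 0.01 ± 0.13, and the list's median against the control in clone 1 was 4.16.

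**Figure D1:**
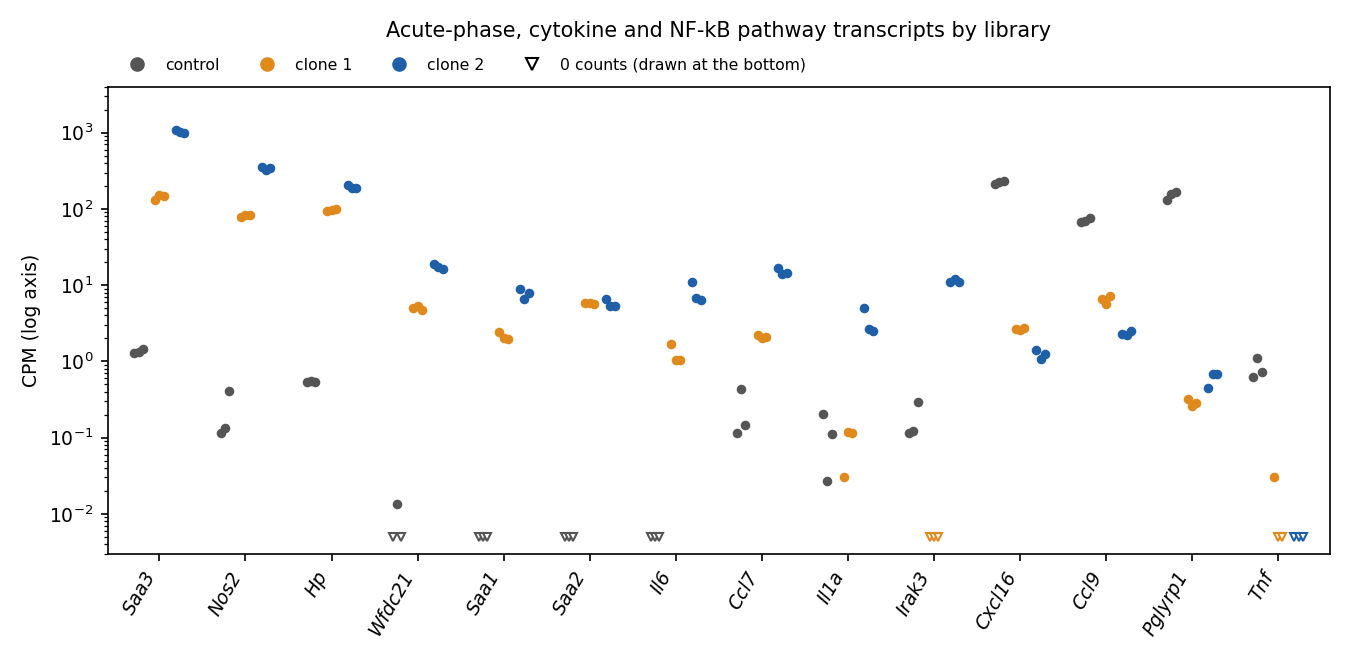
CPM in each library (log axis) of 14 acute-phase, cytokine and NF-kB pathway transcripts in control, clone 1 and clone 2; each dot is 1 library and open triangles mark 0 counts. Clone 2 lies highest for Saa3, Nos2, Hp, Wfdc21, Il6, Ccl7, Il1a and Irak3, and both clones lie far below the control for Cxcl16, Ccl9 and Pglyrp1.

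Cytokine transcripts did not move as a block. Of the cytokines and chemokines, 11 of 27 tested genes were higher in clone 2, 13 lower and 3 did not pass (median log2 fold change -0.56); restricting the list to genes at 1 CPM or more in 3 libraries turned the median to 0.589, so the sign of this median rests on scarce transcripts. Il6, the main inducer of the acute phase in the liver, had no counts in any library of unedited cells and 11.1, 6.82 and 6.38 CPM in clone 2, at least 609-fold higher. Ccl7, a monocyte chemoattractant, stood at 0.116, 0.433 and 0.149 CPM in unedited cells and 16.5, 14.02 and 14.4 in clone 2, a change of 5.999 ± 0.28. Il1a, an alarmin of epithelial cells, stood at 0.203, 0.0271 and 0.111 CPM in unedited cells and 4.94, 2.64 and 2.47 in clone 2, a change of 4.88 ± 0.48. Replicate 1 of clone 2 was the highest of its group for these 3 genes, and no library overlapped the control. In the other direction Cxcl16, a transmembrane chemokine, fell from 223 ± 10.1 CPM in unedited cells to 1.25 ± 0.161 in clone 2 (-7.48 ± 0.09). Ccl9 fell from 71.6 ± 4.08 CPM in unedited cells to 2.33 ± 0.156 in clone 2 (-4.94 ± 0.10). Ctf1, an Il6-type cytokine, fell from 8.58 ± 0.554 CPM in unedited cells to 0.114 ± 0.131 in clone 2 (72.7-fold lower). Tnf, which encodes tumour necrosis factor, went from 0.825 ± 0.264 CPM in unedited cells to no counts in clone 2, at least 65.2-fold lower. The list held 7 distinctly higher genes (Il6, Il1a, Il33, Cxcl2, Cxcl12, Ccl2 and Ccl7) and 1 distinctly lower gene, Ccl9.

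NF-kB is the transcription factor family that toll-like and cytokine receptors activate, with a set of inhibitors among its own targets. Of the NF-kB pathway and its feedback genes, 15 of 25 tested genes were higher in clone 2, 9 lower and 1 did not pass (median log2 fold change 0.59). Irak3, a kinase-like protein that restrains toll-like receptor signalling, stood at 0.116, 0.122 and 0.297 CPM in unedited cells and 10.9, 11.9 and 10.9 in clone 2 (5.93 ± 0.26) and had 0 counts in clone 1. Tlr2, a receptor for bacterial lipoproteins, rose from 22.4 ± 1.4998 CPM in unedited cells to 211 ± 13.7 in clone 2 (3.24 ± 0.07). Nfkbiz, a nuclear co-activator of Il6-type targets, rose by 1.53 ± 0.08, and Traf1, an adaptor, by 1.82 ± 0.42. Tlr3, a sensor of double-stranded RNA, fell from 34.5 ± 4.96 CPM in unedited cells to 10.6 ± 2.12 in clone 2 (-1.696 ± 0.16). The adhesion molecule gene Vcam1 fell from 2.58 ± 0.0264 CPM in unedited cells to 0.713 ± 0.1696 in clone 2 (-1.85 ± 0.29). Tnfaip3, which encodes the feedback inhibitor A20, fell from 125 ± 4.397 CPM in unedited cells to 69.3 ± 6.54 in clone 2 (-0.85 ± 0.07). The promoters of the acute-phase list were searched for the NF-kB letters GGGNN directly followed by TTNCC on both strands. They occurred in 3 of the 17 promoters found for 15 of its 24 tested genes, against 5.51% of all promoters, 6.09% of those of genes higher by glmTreat and 5.97% of those of lower genes. In the same 17 promoters CACCTG and ACAAAG each occurred in 5. The promoter of Serpina3n, a serine protease inhibitor of the acute phase at 0.885 ± 0.0201 CPM in unedited cells and 6.87 ± 0.836 in clone 2, is shown with the match in capitals, since it is 1 of the 3; the others were those of Serpina3g, at 6.33 ± 0.485 CPM in unedited cells and 30.6 ± 2.12 in clone 2, and Pglyrp1.
Serpina3n (GRCm38, chr12:104406458-104406757, plus strand): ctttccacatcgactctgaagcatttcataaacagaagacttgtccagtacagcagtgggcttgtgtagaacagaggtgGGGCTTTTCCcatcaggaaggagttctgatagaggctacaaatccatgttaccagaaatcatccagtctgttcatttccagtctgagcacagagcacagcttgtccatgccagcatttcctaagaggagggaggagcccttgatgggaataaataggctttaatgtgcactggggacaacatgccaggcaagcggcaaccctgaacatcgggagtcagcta

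Interferon-stimulated transcripts went mostly down while parts of antigen processing went up. In clone 1 the medians of the interferon-stimulated and MHC class I lists were -0.57 and 0.58. Of the interferon-stimulated genes, 5 of 29 tested genes were higher in clone 2, 18 lower and 6 did not pass (median log2 fold change -0.77). Ifi44, of the antiviral response, fell from 6.31 ± 0.569 CPM in unedited cells to 0.0249 ± 0.0241 in clone 2, 249-fold lower with a 95% counting interval of 114 to 679.6. Usp18, which removes ISG15 from proteins, fell from 11.4 ± 1.75 CPM in unedited cells to 0.371 ± 0.124 in clone 2 (-4.94 ± 0.24). Irf7, the transcription factor that amplifies type I interferon, fell from 4.08 ± 1.14 CPM in unedited cells to 0.327 ± 0.0557 in clone 2 (-3.64 ± 0.27). The oligoadenylate synthetase family gene Oasl1 fell from 4.099 ± 0.656 CPM in unedited cells to 0.0246 ± 0.0241 in clone 2. Oasl2 fell from 3.72 ± 0.841 CPM in unedited cells to 0.0379 ± 0.0463 in clone 2, and Oas2 from 0.654 ± 0.164 CPM in unedited cells to 0.00853 ± 0.0148 in clone 2. Gbp7, a guanylate-binding protein, Trim30a and Xaf1 rose, by 2.17 ± 0.23, 2.04 ± 0.15 and 1.34 ± 0.09. Bst2, which tethers budding virus, stood at 71.3 ± 5.12 CPM in unedited cells and 66.7 ± 2.62 in clone 2 and did not pass; without control replicate 1 it did (log2 fold change -0.156, edgeR adjusted p = 0.0459). Among MHC class I and antigen processing genes, 11 of 19 tested genes were higher in clone 2, 4 lower and 4 did not pass (median log2 fold change 0.32). Psmb8, an immunoproteasome subunit, rose from 0.206 ± 0.0642 CPM in unedited cells to 11.3 ± 1.07 in clone 2 (5.76 ± 0.19). Nlrc5, the transactivator of class I genes, rose from 0.186 ± 0.0847 CPM in unedited cells to 7.904 ± 0.812 in clone 2 (5.39 ± 0.22). The class I heavy chain genes H2-D1, H2-K1 and H2-Q4, whose near-identical sequences can share reads, fell, with log2 fold changes of -0.49 ± 0.06, -0.35 ± 0.06 and -0.55 ± 0.06, while H2-T23 rose by 1.301 ± 0.12.

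Rises were also in the majority among genes of the extracellular matrix. Of the collagen chains, 13 of 24 tested genes were higher in clone 2, 7 lower and 4 did not pass (median log2 fold change 0.99). Col11a1, a minor fibrillar chain that nucleates fibrils, stood at 2.84, 1.98 and 2.91 CPM in unedited cells and 203, 190.4 and 209 in clone 2, a change of 6.28 ± 0.13. Clone 2 was higher in every library, and it exceeded clone 1 (50.1 ± 4.83 CPM in clone 1, mean ± SD) by 2.002 ± 0.11. Over all collagen chains the median in clone 1 was 0.57. By glmTreat 3 chains were higher in clone 2 than in clone 1 and 5 lower. Col5a1, of fibrillar collagen V, rose from 57.2 ± 4.01 CPM in unedited cells to 748 ± 84.9 in clone 2 (3.71 ± 0.09). Col6a2, of the beaded filament collagen VI, rose from 7.11 ± 1.03 CPM in unedited cells to 108 ± 12.6 in clone 2 (3.92 ± 0.11). The basement membrane chain gene Col4a3 fell from 2.35 ± 0.265 CPM in unedited cells to 0.01603 ± 0.0278 in clone 2, Col4a4 by 4.47 ± 0.22 and Col18a1 by 1.79 ± 0.07. Of the matrix glycoproteins and fibre proteins, 18 of 24 tested genes were higher in clone 2, 4 lower and 2 did not pass (median log2 fold change 1.75); the median was 1.011 without a filter on low counts and 1.273 under a stricter one. Postn, periostin, stood at 7.15, 7.15 and 6.63 CPM in unedited cells and 1028, 796 and 865 in clone 2 (7.01 ± 0.14) and exceeded clone 1 by 3.17 ± 0.11. For this list as a whole the median in clone 1 was larger, 2.16. By glmTreat 2 members were higher in clone 2 than in clone 1 and 4 lower. Efemp1 rose from 5.35 ± 0.572 CPM in unedited cells to 458 ± 9.72 in clone 2 (6.42 ± 0.08). Fbln1, fibulin 1, rose from 0.853 ± 0.138 CPM in unedited cells to 27.00 ± 2.75 in clone 2 (4.98 ± 0.13). Ltbp2, a microfibril protein, fell from 312 ± 13.9 CPM in unedited cells to 13.5 ± 0.234 in clone 2 (-4.53 ± 0.06) and was distinctly lower than in clone 1, and Thbs1, which encodes thrombospondin, fell from 2192 ± 109 CPM in unedited cells to 391.8 ± 23.9 in clone 2 (-2.48 ± 0.06).

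Enzymes that mature and cross-link collagen rose in most cases. Of the lysyl oxidases and collagen processing genes, 15 of 18 tested genes were higher in clone 2, 2 lower and 1 did not pass (median log2 fold change 1.73). Clone 1 had a median of 1.42 for this list. By glmTreat 2 members were higher in clone 2 than in clone 1 and 0 lower. Lox, the cross-linking oxidase, stood at 12.3, 12.7 and 11.4 CPM in unedited cells and 4602, 3843 and 4279.6 in clone 2, a change of 8.45 ± 0.11. P4ha3, a prolyl hydroxylase subunit, rose from 0.715 ± 0.0901 CPM in unedited cells to 49.5 ± 3.11 in clone 2 (6.12 ± 0.10). Plod2, a lysyl hydroxylase, rose from 0.658 ± 0.171 CPM in unedited cells to 45.6 ± 8.29 in clone 2 (6.098 ± 0.21). The procollagen peptidase gene Adamts2 rose from 0.851 ± 0.112 CPM in unedited cells to 43.8 ± 2.21 in clone 2 (5.68 ± 0.10). Bmp1, another procollagen peptidase, fell slightly (-0.29 ± 0.06). Proteases were split: of the matrix proteases and their inhibitors, 12 of 27 tested genes were higher in clone 2, 10 lower and 5 did not pass (median log2 fold change 0.07). Timp4, a metalloprotease inhibitor, had no counts in any library of unedited cells, 0.182, 0.0394 and 0.244 CPM in clone 1 and 22.1, 23.7 and 22.4 in clone 2, which put clone 2 at least 1696-fold higher than the control and 150.4-fold higher than clone 1. Mmp14, a membrane collagenase, rose by 4.21 ± 0.10, Mmp19 by 4.77 ± 0.13 and Plat, the tissue plasminogen activator gene, by 3.53 ± 0.06, while Mmp15 (-3.11 ± 0.18) and Mmp10 (-3.51 ± 0.25) fell.

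Integrin and laminin genes fell more often than they rose. In clone 1 the median of this list was -0.43. Of the integrins and laminins, 8 of 23 tested genes were higher in clone 2, 13 lower and 2 did not pass (median log2 fold change -0.77). Lama4, a laminin chain, fell from 65.7 ± 3.12 CPM in unedited cells to 0.463 ± 0.0871 in clone 2 (-7.15 ± 0.21). Itgb6, an epithelial integrin subunit, fell from 8.18 ± 0.3900 CPM in unedited cells to 0.0756 ± 0.0228 in clone 2 (-6.72 ± 0.32). Itga5, the fibronectin receptor subunit, rose from 36.1 ± 4.26 CPM in unedited cells to 330.3 ± 24.03 in clone 2 (3.19 ± 0.09). Itgb7 rose from 0.204 ± 0.0389 CPM in unedited cells to 9.97 ± 0.4199 in clone 2 (5.59 ± 0.14). Lama3 stood at 11.4 ± 1.04 CPM in unedited cells and 10.7 ± 0.256 in clone 2 and did not pass.

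Regulators of the epithelial-to-mesenchymal transition were divided in clone 2. Of the EMT transcription factors and mesenchymal structure genes, 9 of 17 tested genes were higher in clone 2, 8 lower and 0 did not pass (median log2 fold change 0.19). This median turned to -0.123 to -0.019 without control replicate 1 or without any 1 clone 2 library. Snai1, the Snail repressor, stood at 28.98, 32.3 and 30.00 CPM in unedited cells, 10.04, 11.2 and 11.2 in clone 1 and 0.613, 0.345 and 0.3198 in clone 2, a change of -6.14 ± 0.17 against the control and -4.65 ± 0.17 against clone 1. Zeb2, another E-box repressor, stood at 7.09, 5.12 and 5.25 CPM in unedited cells and 64.00, 45.5 and 50.7 in clone 2 (3.201 ± 0.16). Snai2, the Slug repressor, stood at 0.463, 0.325 and 0.408 CPM in unedited cells and 8.37, 5.901 and 6.37 in clone 2 (4.11 ± 0.19). Snai1 was lowest in clone 2 with no overlap among the 3 groups, and Zeb2 and Snai2 were higher in every clone 2 library than in the control. Prrx1 and Prrx2, paired homeobox factors of mesenchyme, moved in opposite directions: Prrx1 from 1.36 ± 0.353 CPM in unedited cells to 57.6 ± 9.25 in clone 2 (5.396 ± 0.19) and Prrx2 from 3.399 ± 0.505 CPM in unedited cells to 0.0505 ± 0.0252 in clone 2 (-6.02 ± 0.34), and each was distinct from clone 1.

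Among lineage genes of the mammary gland, luminal ones fell more often and basal ones rose more often. In clone 1 the medians of these lists were -1.63 and 1.94. Of the luminal mammary genes, 5 of 20 tested genes were higher in clone 2, 14 lower and 1 did not pass (median log2 fold change -1.73). Krt7, a simple epithelial keratin, fell from 3792 ± 287 CPM in unedited cells to 5.69 ± 0.527 in clone 2 (-9.38 ± 0.11). The receptor gene for prolactin, Prlr, fell from 21.7 ± 2.42 CPM in unedited cells to no counts in clone 2, at least 1707-fold lower. Tbx3, Wnt4 and Xdh rose, by 4.91 ± 0.25, 3.06 ± 0.08 and 2.31 ± 0.09. Gata3, a luminal regulator, stood at 89.1 ± 6.06 CPM in unedited cells and 85.3 ± 1.102 in clone 2 and did not pass, though it did without control replicate 1 (log2 fold change -0.133, edgeR adjusted p = 0.0320). Of the basal mammary genes, 14 of 20 tested genes were higher in clone 2, 5 lower and 1 did not pass (median log2 fold change 2.33). Krt14, a basal keratin, stood at 3.02, 3.72 and 4.68 CPM in unedited cells, 9.46, 9.81 and 10.9 in clone 1 and 131, 142 and 133 in clone 2, a change of 5.15 ± 0.13 against the control and 3.75 ± 0.12 against clone 1. Krt16, a keratin of stressed epithelium, rose from 0.231 ± 0.0249 CPM in unedited cells to 19.3 ± 0.789 in clone 2 (6.37 ± 0.14). Trp63, the regulator of basal identity, rose from 0.0753 ± 0.0153 CPM in unedited cells to 0.787 ± 0.1003 in clone 2 (3.35 ± 0.22), below the 12.2 ± 0.4597 CPM in clone 1. Itgb4, a hemidesmosome subunit (-1.78 ± 0.08), and Dll1, a Notch ligand (-3.196 ± 0.09), fell. Krt5, another basal keratin, was near the floor at 0.105 ± 0.0495 CPM in unedited cells and 0.1499 ± 0.0682 in clone 2 and did not pass. Of the contractile and smooth muscle genes, 12 of 26 tested genes were higher in clone 2, 7 lower and 7 did not pass (median log2 fold change 0.36). The median was 0.164 under the stricter filter and 0.169 without control replicate 1. Those distinctly higher were the actin gene Acta2 at 0.0297 ± 0.03102 CPM in unedited cells, 0.563 ± 0.01100 in clone 1 and 2.45 ± 0.384 in clone 2, the actin gene Actg2 at 0.117 ± 0.0182 CPM in unedited cells, 0.1201 ± 0.07804 in clone 1 and 6.44 ± 0.186 in clone 2, and Des, of muscle intermediate filaments, at 0.0442 ± 0.0134 CPM in unedited cells, 0.132 ± 0.0662 in clone 1 and 1.61 ± 0.264 in clone 2. Tpm2, a tropomyosin (-6.12 ± 0.24), and Lmod1, an actin nucleator (-5.53 ± 0.21), fell.

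The largest rises against the control included structural genes of muscle. Myom2, which cross-links the sarcomere, stood at 0.0289, 0.257 and 0.124 CPM in unedited cells, 31.02, 30.8 and 30.8 in clone 1 and 218, 224 and 220.5 in clone 2, 1593-fold higher than the control. Sgcd, of the sarcoglycan complex, stood at 0.0289, 0 and 0.0248 CPM in unedited cells, 21.6, 20.1 and 22.6 in clone 1 and 13.6, 12.2 and 12.2 in clone 2. Mtus2, a microtubule-binding gene, stood at 0.0289, 0.0135 and 0.0743 CPM in unedited cells, 3.17, 3.75 and 3.39 in clone 1 and 41.8, 47.9 and 45.5 in clone 2. Each clone's libraries lay above every control library, with clone 2 above clone 1 for Myom2 and Mtus2 and below it for Sgcd. The transporter gene Slc6a12, of betaine and GABA, went from 0.0238 ± 0.0303 CPM in unedited cells to 128 ± 2.05 in clone 2.

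The 310 distinctly higher genes held transcripts of several functions. Ces2g, a carboxylesterase that can share reads with its paralogs, stood at 0.0289, 0.162 and 0.149 CPM in unedited cells, 0.0911, 0.0526 and 0.1004 in clone 1 and 47.5, 49.7 and 50.9 in clone 2. Its paralog Ces2f stood at 0.0289, 0.0271 and 0.0619 CPM in unedited cells, 0.0304, 0.0526 and 0.0574 in clone 1 and 12.9, 11.6 and 12.2 in clone 2. Both were at or below 0.162 CPM outside clone 2. Fxyd6, a modulator of the sodium pump, stood at 0.506, 0.839 and 0.718 CPM in unedited cells, no counts in any library of clone 1 and 44.2, 47.8 and 43.9 in clone 2, 65.3-fold higher than the control and at least 3191-fold higher than clone 1. Ncf4, a subunit of the phagocyte NADPH oxidase, stood at 0.162 ± 0.07396 CPM in unedited cells, 0.399 ± 0.0657 in clone 1 and 22.4 ± 1.28 in clone 2. Fez1, an adaptor of axonal transport, stood at 0.1303 ± 0.0802 CPM in unedited cells, 0.04104 ± 0.0358 in clone 1 and 16.5 ± 0.204 in clone 2. Fjx1, a secreted regulator in the Fat-Dachsous family pathway, stood at 0.611 ± 0.1605 CPM in unedited cells, 0.567 ± 0.207 in clone 1 and 33.8 ± 1.42 in clone 2. The phospholipase A2 receptor gene Pla2r1 stood at 0.297 ± 0.152 CPM in unedited cells, no counts in clone 1 and 13.04 ± 1.22 in clone 2. The log2 fold changes against the control of Ces2g, Fxyd6, Ncf4, Fez1 and Fjx1 were 8.71 ± 0.21, 6.03 ± 0.15, 7.11 ± 0.20, 6.93 ± 0.28 and 5.78 ± 0.20 (adjusted p at most 1.21e-09, edgeR). The log2 fold change of Vmn2r79 was 10.596 ± 0.46; this gene, of the vomeronasal receptor family, whose members can share reads, stood at 0.0193 ± 0.0334 CPM in unedited cells, 0.222 ± 0.137 in clone 1 and 30.3 ± 6.64 in clone 2. Cryab, a small heat shock protein, was the most abundant of those named, at 173, 199.7 and 218 CPM in unedited cells, 242, 248 and 261 in clone 1 and 1147, 1255 and 1180.0 in clone 2 (2.598 ± 0.08). Lpl, lipoprotein lipase, stood at 0.6801, 0.311 and 0.792 CPM in unedited cells, 0.0152, 0.0526 and 0.172 in clone 1 and 31.6, 27.1 and 26.2 in clone 2. For both, every clone 2 library lay above all others.

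**Figure D2:**
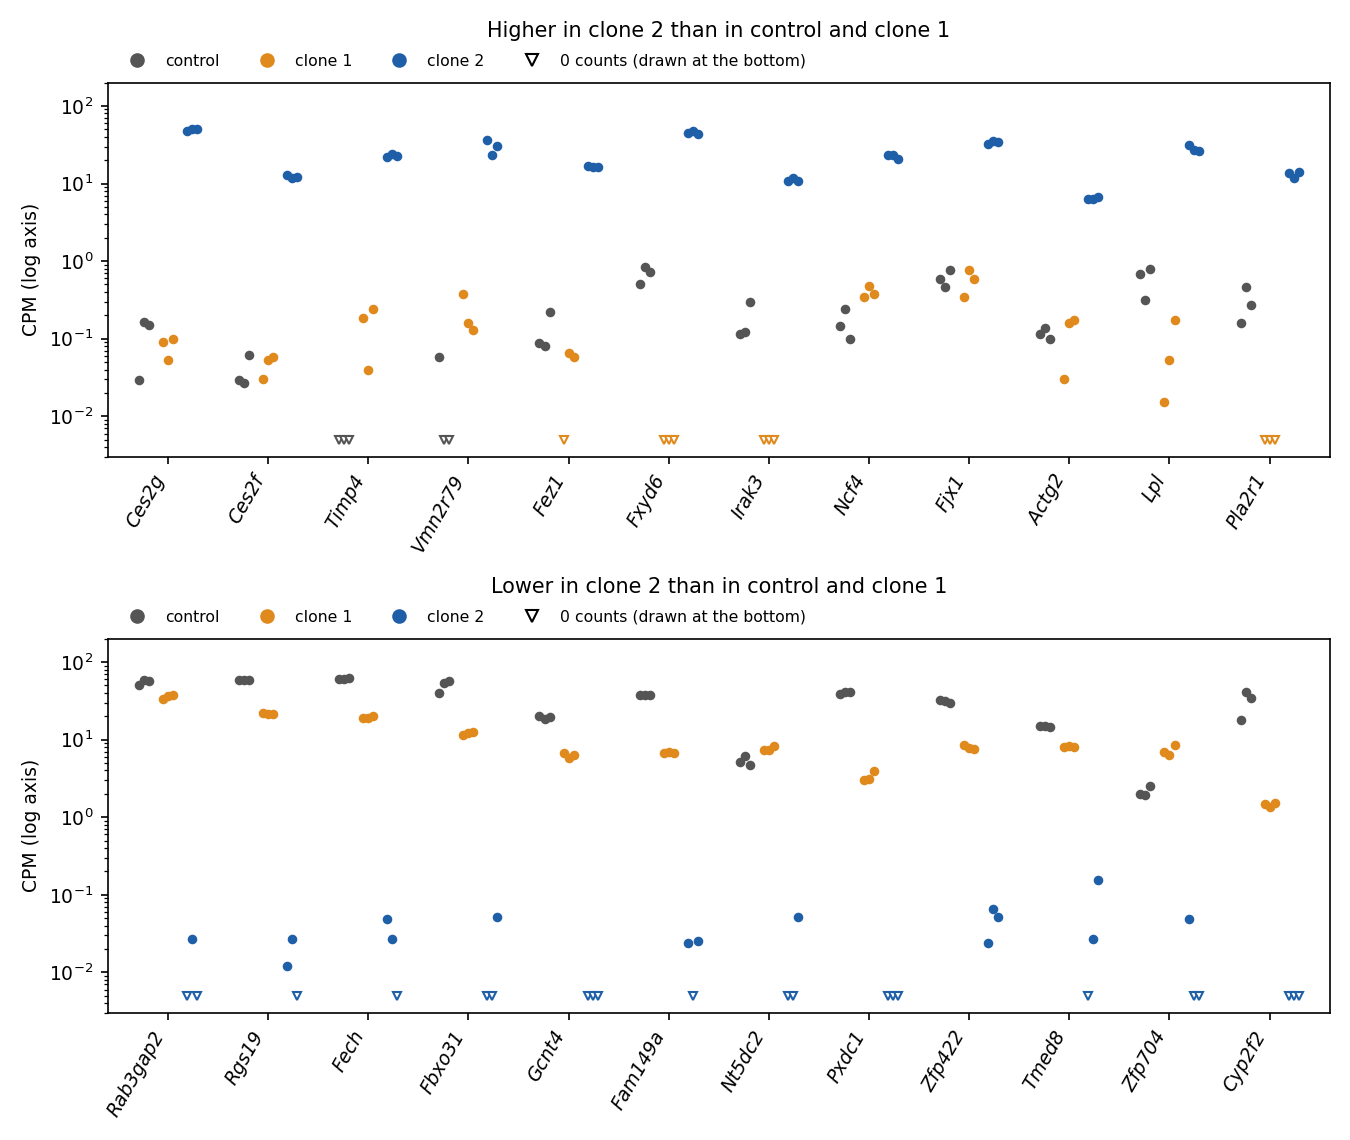
CPM in each library (log axis) of the 12 named genes distinctly higher (top) and the 12 distinctly lower (bottom) in clone 2; dots are libraries and open triangles mark 0 counts. These genes were chosen for this difference: clone 2 lies between 6.31 and 50.9 CPM in the top panel and at or below 0.154 CPM in the bottom panel.

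The 219 distinctly lower genes included several that were well expressed in both other groups and near 0 in clone 2. Rab3gap2, the non-catalytic subunit of a Rab GTPase-activating complex (Entrez ID 98732), stood at 51.1, 57.8 and 56.4 CPM in unedited cells, 33.02, 36.7 and 37.97 in clone 1 and 0, 0.0265 and 0 in clone 2. Rgs19, a regulator of G protein signalling, stood at 57.9, 58.8 and 57.9 CPM in unedited cells, 21.9, 21.4 and 21.7 in clone 1 and 0.01202, 0.0265 and 0 in clone 2. Fech, ferrochelatase, the last enzyme of haem synthesis, stood at 60.3, 61.1 and 61.9 CPM in unedited cells, 19.1, 19.1 and 20.1 in clone 1 and 0.0481, 0.0265 and 0 in clone 2. All 3 were well expressed in clone 1 and had 2, 3 and 6 counts in all over the clone 2 libraries. Against the control they were 6536-fold lower with a 95% counting interval of 1809 to 53979, 4592-fold lower with a 95% counting interval of 1571 to 22269 and 2413-fold lower with a 95% counting interval of 1108 to 6576. Fbxo31, a subunit of an SCF ubiquitin ligase, was 2985-fold lower with a 95% counting interval of 1165 to 10956, and Fam149a was 2199.6-fold lower with a 95% counting interval of 859 to 8075. Gcnt4, a glycan-branching enzyme, was at least 1536-fold lower, Pxdc1 was at least 3191-fold lower and Tmed8 was 252-fold lower. The zinc finger gene Zfp422 fell from 31.3 ± 1.44 CPM in unedited cells to 0.0472 ± 0.0214 in clone 2. Nt5dc2 stood at 5.34 ± 0.731 CPM in unedited cells, 7.62 ± 0.512 in clone 1 and 0.0171 ± 0.0295 in clone 2. Cyp2f2, a cytochrome P450, stood at 31.03 ± 11.9 CPM in unedited cells, 1.45 ± 0.0862 in clone 1 and no counts in clone 2.

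Developmental signalling pathways held large changes in both directions. Of the Notch pathway, 9 of 22 tested genes were higher in clone 2, 10 lower and 3 did not pass (median log2 fold change 0.08); without a filter on low counts this median turned to -0.459. Notch1, a receptor, stood at 121, 124 and 132 CPM in unedited cells, 86.5, 96.8 and 97.98 in clone 1 and 25.8, 29.4 and 30.8 in clone 2, a change of -2.14 ± 0.08 against the control and -1.71 ± 0.08 against clone 1. Notch4, another receptor, stood at 3.299, 2.76 and 3.74 CPM in unedited cells, 7.99, 10.3 and 9.37 in clone 1 and 23.9, 25.7 and 26.6 in clone 2, with 2.96 ± 0.13 and 1.46 ± 0.12. The 2 receptors were each distinct in clone 2, in opposite directions, with no library overlapping another group. Notch3 fell by 2.93 ± 0.28, the ligand gene Jag2 rose by 3.12 ± 0.08, and the target gene Hey1, at 0.294 ± 0.1104 CPM in unedited cells, 0.203 ± 0.02702 in clone 1 and 0.0171 ± 0.0295 in clone 2, was 17.7-fold lower with a 95% counting interval of 6.61 to 66.9 than the control. Of the Wnt pathway, 14 of 31 tested genes were higher in clone 2, 13 lower and 4 did not pass (median log2 fold change 0.05); it turned to -0.187 without that filter. Axin2, a feedback inhibitor and common readout of the pathway, stood at 2.56, 2.65 and 3.38 CPM in unedited cells and 118, 119.9 and 121 in clone 2 (5.38 ± 0.09). The ligand gene Wnt6 stood at 1.52, 1.15 and 1.23 CPM in unedited cells and 50.3, 52.99 and 50.6 in clone 2 (5.31 ± 0.11). Both were higher in every clone 2 library. The ligand gene Wnt7a fell from 55.9 ± 3.38 CPM in unedited cells to 0.219 ± 0.103 in clone 2 (-7.98 ± 0.19). Among inhibitors of the pathway, Rnf43 fell from 8.33 ± 0.402 CPM in unedited cells to no counts in clone 2, at least 658-fold lower. Nkd2 fell from 115 ± 14.2 CPM in unedited cells to no counts in clone 2, at least 9165-fold lower. Other inhibitors rose: Sfrp1, which binds Wnt proteins, from 46.8 ± 1.52 CPM in unedited cells to 207 ± 7.05 in clone 2 (2.14 ± 0.05) and Notum, which inactivates them, from 10.9 ± 1.62 CPM in unedited cells to 56.6 ± 1.94 in clone 2 (2.37 ± 0.09). The receptor gene Fzd3 fell from 3.71 ± 0.216 CPM in unedited cells to no counts in clone 2. Lrp6, a co-receptor, stood at 98.98 ± 6.45 CPM in unedited cells and 102 ± 6.01 in clone 2 and did not pass.

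Of the TGF-beta and BMP pathway, 20 of 38 tested genes were higher in clone 2, 12 lower and 6 did not pass (median log2 fold change 0.41). Fst, follistatin, which traps activin, stood at 25.8, 24.6 and 26.2 CPM in unedited cells, 0.273, 0.605 and 0.4305 in clone 1 and no counts in any library of clone 2, at least 2014-fold lower than the control and at least 35.1-fold lower than clone 1. Fstl3, a related activin trap, rose from 4.22 ± 0.162 CPM in unedited cells to 59.2 ± 2.202 in clone 2 (3.81 ± 0.07). Chrd, the BMP antagonist chordin, rose from 1.45 ± 0.219 CPM in unedited cells to 69.6 ± 3.01 in clone 2 (5.58 ± 0.10). The ligand gene Bmp4 fell from 2.82 ± 0.108 CPM in unedited cells to no counts in clone 2, at least 222-fold lower. Smad2, a transducer of the pathway, stood at 89.8 ± 2.36 CPM in unedited cells and 87.6 ± 0.959 in clone 2 and did not pass. Of the YAP/TAZ and TEAD targets, 13 of 26 tested genes were higher in clone 2, 9 lower and 4 did not pass (median log2 fold change 0.20). Axl, a receptor tyrosine kinase, stood at 108, 109 and 119 CPM in unedited cells and 1179.7, 1262 and 1267 in clone 2 (3.46 ± 0.06), while Ankrd1, a standard target, fell from 509 ± 30.5 CPM in unedited cells to 72.03 ± 6.603 in clone 2 (-2.82 ± 0.08) and F3, tissue factor, by 2.84 ± 0.13. Arhgef17, a guanine nucleotide exchange factor, fell from 320.4 ± 24.4 CPM in unedited cells to 5.85 ± 0.3902 in clone 2 (-5.77 ± 0.09).

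Of the growth factor receptors, 12 of 24 tested genes were higher in clone 2, 10 lower and 2 did not pass (median log2 fold change 0.32); without a filter on low counts this median turned to -0.859. Ntrk3, a neurotrophin receptor, stood at 0.318, 0.1895 and 0.371 CPM in unedited cells, 3.31, 4.21 and 3.79 in clone 1 and 16.3, 16.7 and 17.2 in clone 2, a change of 5.82 ± 0.18 against the control and 2.15 ± 0.14 against clone 1. Ddr2, a collagen receptor, rose by 3.76 ± 0.17, and Styk1 fell by 3.92 ± 0.15. Of the growth factors of receptor tyrosine kinases, 18 of 35 tested genes were higher in clone 2, 15 lower and 2 did not pass (median log2 fold change 0.23). That list also holds genes of insulin-like growth factor binding proteins, which are not ligands of these receptors. Without a filter on low counts its median was -0.090, and it was 0.083 without clone 2 replicate 2. Gdnf, a ligand of the Ret co-receptor complex, rose from 6.67 ± 0.0932 CPM in unedited cells to 146 ± 1.68 in clone 2 (4.45 ± 0.05). Vegfd, a lymphangiogenic factor, rose from 0.303 ± 0.0406 CPM in unedited cells to 31.6 ± 0.2004 in clone 2 (6.69 ± 0.10). Pros1, a ligand of the TAM receptors, rose from 1.11 ± 0.1699 CPM in unedited cells to 73.1 ± 3.73 in clone 2 (6.04 ± 0.12). Fgf2 rose from 0.546 ± 0.189 CPM in unedited cells to 13.6 ± 1.31 in clone 2 (4.65 ± 0.21). Pdgfb fell from 85.4 ± 6.15 CPM in unedited cells to 9.33 ± 0.277 in clone 2 (-3.19 ± 0.11). Of the ERK feedback and immediate-early genes, 17 of 35 tested genes were higher in clone 2, 11 lower and 7 did not pass (median log2 fold change 0.02). Etv1, an ETS factor, stood at 8.51, 8.49 and 8.43 CPM in unedited cells, 1.28, 0.999 and 0.947 in clone 1 and 0.0361, 0.0265 and 0 in clone 2, a change of -8.54 ± 0.31. Dusp5, a nuclear ERK phosphatase (-1.73 ± 0.07), and Fosb (-3.700 ± 0.16) fell, and Egr2 and Klf4 rose by 1.68 ± 0.14 and 1.601 ± 0.06.

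Genes of the lineage in which SOX10 is best known moved in both directions. Of the neural crest and Schwann cell genes, 8 of 21 tested genes were higher in clone 2, 9 lower and 4 did not pass (median log2 fold change -0.26). Leaving out 1 library moved this median between -0.444 (without clone 2 replicate 2) and -0.018 (without clone 2 replicate 3). L1cam, a neural adhesion molecule, fell from 13.4 ± 0.969 CPM in unedited cells to no counts in clone 2, at least 1058-fold lower. Ngfr, a neurotrophin receptor, fell from 7.33 ± 0.249 CPM in unedited cells to no counts in clone 2, at least 579.8-fold lower. Sox6 fell from 3.14 ± 0.472 CPM in unedited cells to 0.00426 ± 0.00739 in clone 2. Pmp22, a myelin protein, rose from 16.4 ± 0.844 CPM in unedited cells to 289 ± 1.75 in clone 2 (4.14 ± 0.05). Nes, nestin, rose from 8.04 ± 1.02 CPM in unedited cells to 121 ± 4.95 in clone 2 (3.91 ± 0.08). Of the axon guidance cues and receptors, 16 of 43 tested genes were higher in clone 2, 21 lower and 6 did not pass (median log2 fold change -0.26). Sema3e, a secreted semaphorin, fell from 158 ± 18.5 CPM in unedited cells to 1.17 ± 0.356 in clone 2 (-7.07 ± 0.17). The ephrin receptor gene Epha1 fell from 138 ± 5.41 CPM in unedited cells to 1.59 ± 0.0536 in clone 2 (-6.45 ± 0.14). Sema4a rose by 3.95 ± 0.08, Sema3b by 3.91 ± 0.16 and Plxnd1, a plexin receptor, by 2.702 ± 0.09. Ntn4, a netrin, had 0.839, 1.07 and 1.11 CPM in unedited cells, 0.3797, 0.355 and 0.402 in clone 1 and no counts in any library of clone 2, at least 80.1-fold lower than the control.

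**Figure D3:**
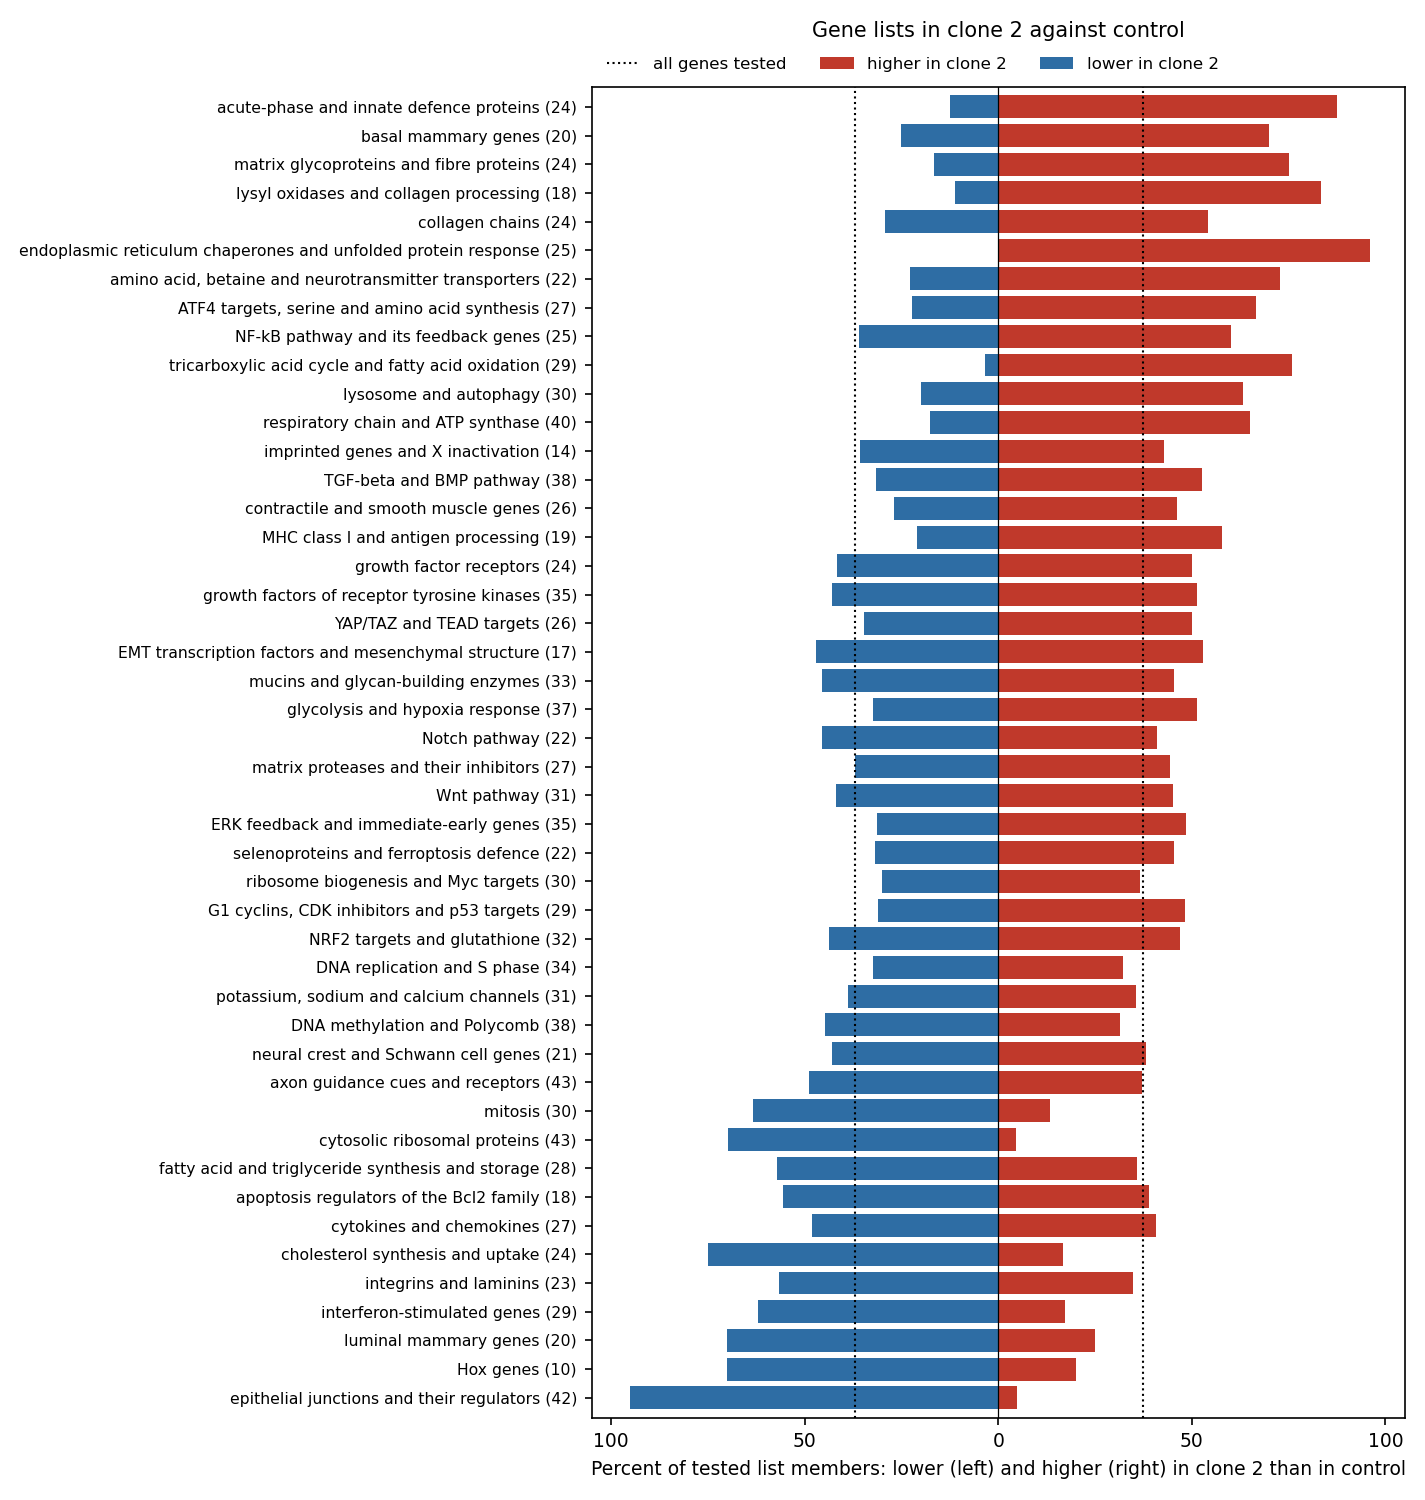
Percent of the tested members of each of 46 gene lists that were higher (right) and lower (left) in clone 2 than in the control, with the number tested in parentheses; lists are ordered by median log2 fold change. Dotted lines mark the 37.3% of all genes that were higher and the 37.1% that were lower. Acute-phase genes stand at the top and epithelial junction genes at the bottom.

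Metabolic transcripts moved by less per gene and in 1 direction for most members of several lists. Of the respiratory chain and ATP synthase genes, 26 of 40 tested genes were higher in clone 2, 7 lower and 7 did not pass (median log2 fold change 0.45). Atp5c1, a subunit of ATP synthase, stood at 298, 330.0 and 339 CPM in unedited cells and 709, 712 and 682 in clone 2 (1.12 ± 0.06). Ndufb5, of complex I, stood at 40.1, 43.2 and 43.4 CPM in unedited cells and 98.9, 97.96 and 92.9 in clone 2 (1.19 ± 0.05). Clone 2 was higher in every library for both. Sdhd, of complex II, rose by 0.83 ± 0.06, and Uqcrfs1, of complex III, and Ndufv1, of complex I, fell (-0.50 ± 0.05 and -0.52 ± 0.08). The list's median in clone 1 was 0.11. Of the genes of the tricarboxylic acid cycle and fatty acid oxidation, 22 of 29 tested genes were higher in clone 2, 1 lower and 6 did not pass (median log2 fold change 0.56), and the median in clone 1 was 0.22. Ppargc1b, a co-activator of mitochondrial genes, rose from 0.4998 ± 0.0196 CPM in unedited cells to 11.3 ± 0.594 in clone 2 (4.49 ± 0.12). Cpt1a, which admits fatty acids to mitochondria, rose from 46.9 ± 4.88 CPM in unedited cells to 111 ± 5.13 in clone 2 (1.24 ± 0.07). Pdhb, of pyruvate dehydrogenase, rose from 33.9 ± 1.08 CPM in unedited cells to 71.9 ± 3.19 in clone 2 (1.08 ± 0.05). The single member that fell was Cpt2 (-1.13 ± 0.09), the partner enzyme of Cpt1a; with the replicate number as a block 2 members were lower.

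Of the glycolysis and hypoxia response genes, 19 of 37 tested genes were higher in clone 2, 12 lower and 6 did not pass (median log2 fold change 0.14). The median was 0.277 under the stricter filter, 0.228 without control replicate 1 and 0.205 without clone 2 replicate 1. Ldhb, the lactate dehydrogenase chain of oxidative tissue, stood at 1.14, 0.839 and 0.965 CPM in unedited cells, 11.5, 13.3 and 12.1 in clone 1 and 42.3, 44.3 and 42.5 in clone 2, a change of 5.45 ± 0.11 against the control and 1.81 ± 0.09 against clone 1. Car12, a carbonic anhydrase, rose from 0.0518 ± 0.04502 CPM in unedited cells to 6.43 ± 0.4401 in clone 2 (6.87 ± 0.35). Egln3, a prolyl hydroxylase of the hypoxia response, fell from 38.1 ± 1.99 CPM in unedited cells to 0.0494 ± 0.0439 in clone 2 (-9.51 ± 0.32). Adm, adrenomedullin, fell from 24.04 ± 2.16 CPM in unedited cells to 1.896 ± 0.245 in clone 2 (-3.66 ± 0.12). Gapdh stood at 2626 ± 222 CPM in unedited cells and 2376 ± 104 in clone 2 and did not pass; with the replicate number as a block it did, at -0.142 (adjusted p = 0.00232, edgeR).

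Transcripts of sterol synthesis fell and some of fat storage rose. The medians of the cholesterol and fatty acid lists in clone 1 were -0.86 and -0.40. Of the genes of cholesterol synthesis and uptake, 4 of 24 tested genes were higher in clone 2, 18 lower and 2 did not pass (median log2 fold change -0.69); without a filter on low counts the median was -0.435. Hmgcs1, an early synthase of the sterol route, stood at 132, 111 and 104 CPM in unedited cells, 68.8, 60.4 and 61.2 in clone 1 and 27.9, 21.5 and 25.4 in clone 2, a change of -2.22 ± 0.11. Every clone 2 library was below all others. Abca1, the cholesterol exporter, rose from 2.396 ± 0.3905 CPM in unedited cells to 80.03 ± 3.65 in clone 2 (5.06 ± 0.10). Of the genes of fatty acid and triglyceride synthesis and storage, 10 of 28 tested genes were higher in clone 2, 16 lower and 2 did not pass (median log2 fold change -0.43). Dgat2, which makes triglyceride, stood at 0.724, 0.839 and 0.755 CPM in unedited cells, 3.86, 3.23 and 4.82 in clone 1 and 16.9, 16.7 and 17.6 in clone 2, a change of 4.46 ± 0.16. The lipid droplet coat gene Plin4 stood at 0.174, 0.135 and 0 CPM in unedited cells, 0.365, 0.342 and 0.143 in clone 1 and 3.64, 3.01 and 2.64 in clone 2, a change of 4.94 ± 0.51. With Lpl they were the 3 distinctly higher members, and the adipocyte fatty acid binder Fabp4 rose by 3.83 ± 0.17. Elovl7, a fatty acid elongase, fell from 43.8 ± 1.32 CPM in unedited cells to 5.16 ± 0.502 in clone 2 (-3.09 ± 0.11).

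Chaperones of the endoplasmic reticulum rose together. Of the endoplasmic reticulum chaperones and unfolded protein response genes, 24 of 25 tested genes were higher in clone 2, 0 lower and 1 did not pass (median log2 fold change 0.80). Herpud1, of the degradation machinery, stood at 36.1, 43.1 and 45.7 CPM in unedited cells and 193, 201 and 193 in clone 2 (2.23 ± 0.08). Sdf2l1 stood at 35.3, 40.3 and 39.3 CPM in unedited cells and 112, 113 and 111 in clone 2 (1.55 ± 0.06). Hsp90b1, the chaperone GRP94, stood at 540.3, 439.6 and 433 CPM in unedited cells and 1181, 956 and 1024 in clone 2 (1.16 ± 0.11). No library of clone 2 overlapped the control. The list's median in clone 1 was 0.76. Derl3 was low in both groups, 0.219 ± 0.102 CPM in unedited cells and 0.206 ± 0.0435 in clone 2, and did not pass. Of the ATF4 targets, serine and amino acid synthesis genes, 18 of 27 tested genes were higher in clone 2, 6 lower and 3 did not pass (median log2 fold change 0.60). Clone 1 had a median of 0.62 for this list. Phgdh, the first enzyme of serine synthesis, rose from 99.4 ± 9.403 CPM in unedited cells to 616 ± 23.1 in clone 2 (2.63 ± 0.08). Psph, the last, rose from 25.96 ± 0.574 CPM in unedited cells to 59.5 ± 1.36 in clone 2 (1.197 ± 0.07). Ddit3, the stress factor CHOP, rose by 1.44 ± 0.07. Nupr1, a stress-induced chromatin protein, fell from 114 ± 16.98 CPM in unedited cells to 23.995 ± 0.468 in clone 2 (-2.25 ± 0.10) and Trib3 by 0.59 ± 0.08. Of the lysosome and autophagy genes, 19 of 30 tested genes were higher in clone 2, 6 lower and 5 did not pass (median log2 fold change 0.51). Their median in clone 1 was 0.38. Lamp1, a lysosomal membrane protein, stood at 516, 564 and 576 CPM in unedited cells, 1093, 1145 and 1124 in clone 1 and 1983, 2007 and 2022 in clone 2 (1.86 ± 0.05), and Ctsb, cathepsin B, rose from 272 ± 22.9 CPM in unedited cells to 1065 ± 36.3 in clone 2 (1.97 ± 0.07). Map1lc3a, an autophagosome protein, fell by 1.78 ± 0.11.

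Antioxidant genes were mixed. Of the NRF2 targets and glutathione genes, 15 of 32 tested genes were higher in clone 2, 14 lower and 3 did not pass (median log2 fold change -0.04). Sod3, the secreted superoxide dismutase, rose from 8.56 ± 1.52 CPM in unedited cells to 721 ± 24.01 in clone 2 (6.39 ± 0.12). Sod2, the mitochondrial one, rose from 24.9 ± 1.15 CPM in unedited cells to 149 ± 16.96 in clone 2 (2.58 ± 0.08). Gstp1, a glutathione transferase (-1.39 ± 0.07), and Pgd, of the pentose phosphate pathway (-1.705 ± 0.07), fell. Of the selenoproteins and ferroptosis defence genes, 10 of 22 tested genes were higher in clone 2, 7 lower and 5 did not pass (median log2 fold change 0.02). Selenop, which carries selenium in plasma, stood at 0.796, 1.41 and 0.755 CPM in unedited cells, 311, 314 and 288 in clone 1 and 767, 688 and 757 in clone 2, a change of 9.55 ± 0.16 against the control and 1.28 ± 0.10 against clone 1. Clone 2 was highest with no overlap. Gpx2, a peroxidase of gut epithelium, was at least 70.9-fold lower, and Gpx4, the peroxidase that guards against ferroptosis, stood at 221 ± 40.2 CPM in unedited cells and 209 ± 9.64 in clone 2 and did not pass, though it did without control replicate 1 (log2 fold change -0.239, edgeR adjusted p = 0.00619).

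Transcripts of cytosolic ribosomal proteins and of mitosis were mostly lower by small amounts. Clone 1 had medians of -0.46 and -0.27 for these lists, against the same control. Of the cytosolic ribosomal proteins, 2 of 43 tested genes were higher in clone 2, 30 lower and 11 did not pass (median log2 fold change -0.42). Rps20 stood at 400.4, 447 and 463 CPM in unedited cells and 173, 187 and 162 in clone 2 (-1.33 ± 0.07). Rps6, the S6 kinase substrate, stood at 595, 695 and 715 CPM in unedited cells and 308, 338 and 305 in clone 2 (-1.07 ± 0.07). Every clone 2 library was below the control for both. With the replicate number as a block 4 members were higher and 32 lower. Rps24 rose by 0.36 ± 0.05, and Rpl4 stood at 1743 ± 52.9 CPM in unedited cells and 1733 ± 32.5 in clone 2 and did not pass. Ribosomal proteins have many processed pseudogenes, which can take part of their reads. Of the ribosome biogenesis and Myc target genes, 11 of 30 tested genes were higher in clone 2, 9 lower and 10 did not pass (median log2 fold change 0.01). Tfrc, the transferrin receptor gene, rose by 1.14 ± 0.14, and Npm1, nucleophosmin, fell by 0.65 ± 0.13. Of the mitosis genes, 4 of 30 tested genes were higher in clone 2, 19 lower and 7 did not pass (median log2 fold change -0.29). The fit with the replicate block called 4 higher and 23 lower. Cdc20, the activator of the anaphase-promoting complex, stood at 186, 201 and 204 CPM in unedited cells and 91.7, 98.8 and 91.4 in clone 2 (-1.07 ± 0.06). Ube2c, its partner enzyme, stood at 273, 277 and 279 CPM in unedited cells and 147, 151 and 148 in clone 2 (-0.89 ± 0.04). Clone 2 was lower in every library. Ccnb1, a mitotic cyclin, fell by 0.65 ± 0.05, while Ttk and Ccna2 rose by 0.75 ± 0.13 and 0.51 ± 0.05. Of the DNA replication and S phase genes, 11 of 34 tested genes were higher in clone 2, 11 lower and 12 did not pass (median log2 fold change -0.06). Here the block gave 11 higher and 14 lower. Gins4 and Ccne1 rose, by 0.62 ± 0.06 and 0.51 ± 0.07, and Pold1 and Rrm2 fell (-0.61 ± 0.06 and -0.49 ± 0.04).

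**Figure D4:**
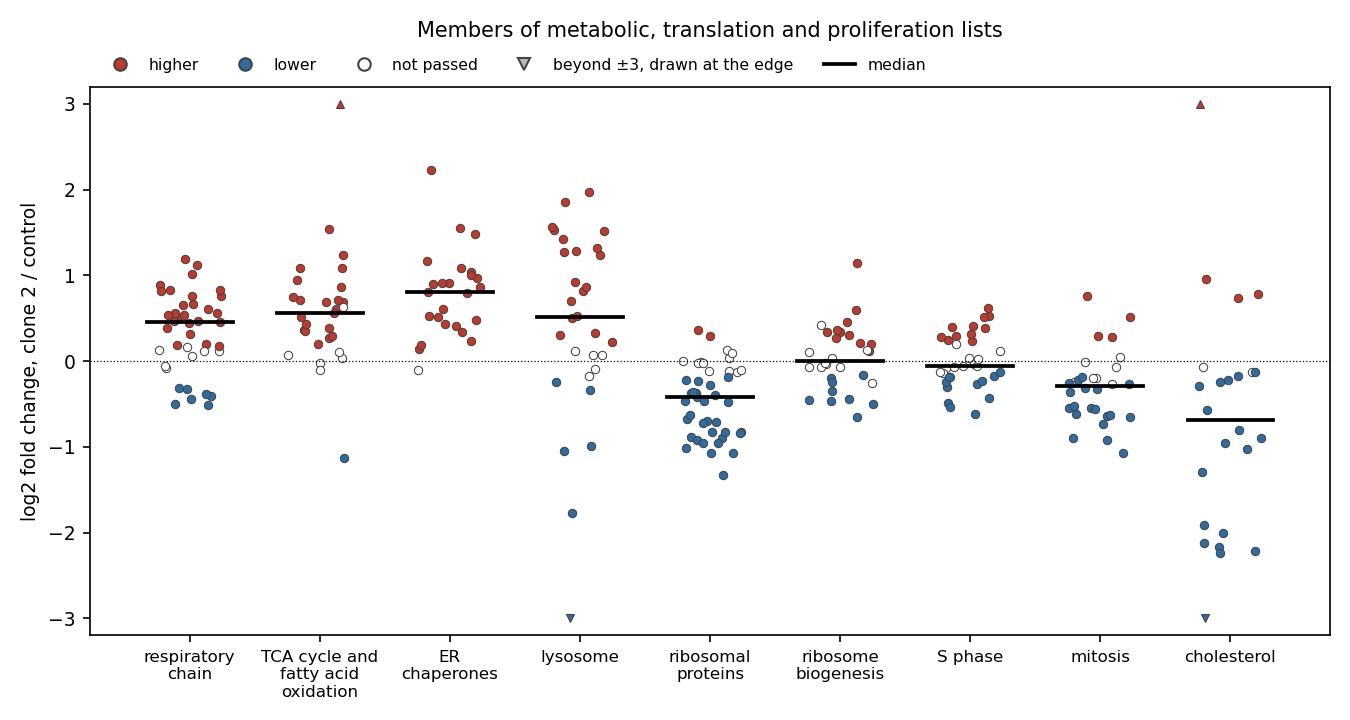
Log2 fold change, clone 2 against control, of each tested member of 9 gene lists; dots are genes, filled where they passed, bars are medians and triangles are genes beyond the axis. Medians of the respiratory chain, the tricarboxylic acid cycle and the endoplasmic reticulum lists lie at 0.45, 0.56 and 0.80, those of ribosomal proteins, mitosis and cholesterol at -0.42, -0.29 and -0.69.

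Of the G1 cyclins, CDK inhibitors and p53 targets, 14 of 29 tested genes were higher in clone 2, 9 lower and 6 did not pass (median log2 fold change -0.04). Ccnd2, a D-type cyclin, had 0.0289, 0.0542 and 0.0495 CPM in unedited cells, no counts in any library of clone 1 and 1.27, 1.39 and 1.15 in clone 2, 28.4-fold higher than the control (log2 fold change 4.78 ± 0.36). Fas, the death receptor, and Sesn1, a p53 target, rose by 2.21 ± 0.07 and 1.31 ± 0.06, while Plk2 (-1.301 ± 0.05), Bbc3 (-1.15 ± 0.08) and Trp53inp1 (-1.83 ± 0.22) fell. Cdk4 stood at 394 ± 28.8 CPM in unedited cells and 383 ± 12.9 in clone 2 and did not pass. Of the apoptosis regulators of the Bcl2 family, 7 of 18 tested genes were higher in clone 2, 10 lower and 1 did not pass (median log2 fold change -0.49); the median was -0.766 without a filter on low counts and -0.274 under the stricter one. Bmf, a pro-apoptotic BH3-only protein, stood at 25.9, 42.3 and 42.9 CPM in unedited cells, 12.9, 12.5 and 14.3 in clone 1 and 3.08, 3.54 and 3.15 in clone 2, a change of -3.51 ± 0.18 against the control and -2.02 ± 0.18 against clone 1. Pmaip1, which encodes the BH3-only protein NOXA, stood at 3.42, 2.55 and 2.500 CPM in unedited cells, 0.213, 0.237 and 0.301 in clone 1 and 8.46, 5.48 and 6.37 in clone 2, a change of 1.27 ± 0.19, and Bnip3 rose by 1.54 ± 0.08. Bak1, an effector of pore formation, stood at 139 ± 10.5 CPM in unedited cells and 136 ± 4.96 in clone 2 and did not pass.

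Levels were compared between genes as CPM per kilobase of annotated exon, which is longer than the transcript where a gene has several. On this scale the largest gains were in Fth1, the ferritin heavy chain, whose level per kilobase went from 2192 to 4727, the metallothionein Mt2 (167 to 1492), S100a4 (1141 to 2123), Lox (2.54 to 888), Cryab (133 to 807), Lcn2 (675 to 1343), Lamp1 (206 to 749) and Slpi (463 to 969). The largest losses per kilobase were in Krt18 (1606 to 447), Krt8 (1224 to 403), the enolase gene Eno1b (1757 to 999), the elongation factor gene Eef1a1 (3463 to 2782), Krt7 (538 to 0.807), Anxa1 (698 to 184), Hsp90ab1 (1712 to 1199.7) and the ribosomal fusion gene Fau (1076 to 574). Fth1 and Eef1a1 have many pseudogenes, and Eno1b is a near-identical copy of Eno1, so their counts can include reads of other loci. In log2 terms these gains were 1.11 ± 0.08 for Fth1 and 3.16 ± 0.07 for Mt2, and the losses -1.85 ± 0.09 for Krt18 and -0.32 ± 0.07 for Eef1a1.

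Homeobox and chromatin genes differed too. Of 10 tested Hox genes 2 were higher in clone 2, 7 were lower and 1 did not pass (median log2 fold change -3.09). Clone 1 had a median of -3.06 for them. Hoxa7 went from 15.8 ± 2.17 CPM in unedited cells to no counts in clone 2, at least 1258-fold lower. Its neighbours Hoxa5 (-4.34 ± 0.22) and Hoxa6 (-3.49 ± 0.30) fell. Hoxb4 rose from 0.117 ± 0.0241 CPM in unedited cells to 9.24 ± 0.8800 in clone 2 (6.29 ± 0.18). Of the DNA methylation and Polycomb genes, 12 of 38 tested genes were higher in clone 2, 17 lower and 9 did not pass (median log2 fold change -0.23). The median was -0.150 without control replicate 1. A fit with the replicate number as a block called 12 higher and 23 lower. Dnmt3b, a de novo methyltransferase, had 0.854, 0.866 and 1.05 CPM in unedited cells, 0.304, 0.2103 and 0.172 in clone 1 and no counts in any library of clone 2, at least 73.4-fold lower. Phf19, a Polycomb accessory protein, rose from 0.862 ± 0.0779 CPM in unedited cells to 39.6 ± 1.99 in clone 2 (5.52 ± 0.10), and Phc2 and Pcgf5, of Polycomb repressive complex 1, fell (-1.58 ± 0.07 and -1.74 ± 0.08).

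Symbol families, grouped by the letters before the first digit with at least 15 tested members, gave a view without chosen lists. The Serpinb family of intracellular protease inhibitors had the highest median: 15 of 19 tested members were higher and 2 lower (median log2 fold change 4.77, and 3.31 in clone 1). Its 6 distinctly higher members were Serpinb9d, Serpinb9e, Serpinb9f, Serpinb9g, Serpinb9h and Serpinb10, at most 2.65 CPM in clone 2 and at most 0.0283 CPM in the control, and close paralogs can share reads; these were singled out after their values were seen. Serpinb9, an inhibitor of granzyme B, rose from 4.38 ± 0.449 CPM in unedited cells to 18.1 ± 1.93 in clone 2 (2.05 ± 0.11), while Serpinb5, maspin, fell from 31.6 ± 2.29 CPM in unedited cells to 0.166 ± 0.0629 in clone 2 (-7.57 ± 0.20). Vomeronasal receptors (Vmn) came second, with 9 of 15 higher and 3 lower, median 2.37. This order rests on scarce genes: at 1 CPM or more in 3 libraries the Serpinb median was 2.015 and that of Vmn 4.583, and without any filter they were 3.895 and 0. Symbols made of C and a digit, such as complement C3, followed at 0.953 (17 of 25 higher), then Cfap at 0.794 and interleukins and their receptors (Il) at 0.727 (24 of 43 higher). The lowest medians were those of symbols made of H and a digit, mostly histones and H2 class I genes, at -0.606 (46 of 92 lower), Rps at -0.589 (33 of 48 lower), the tetraspanins (Tspan) at -0.498, symbols made of B and a digit, mostly glycosyltransferases, at -0.417, and cytochromes P450 (Cyp) at -0.393. That order also moved with the filter: under the stricter one H was at -0.292, Tspan at -0.149 and Rps at -0.621, and without one Cyp was at -0.759. Cfap and Il were at 0.431 and 0.210 without a filter.

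Changes were also uneven along the genome. The median log2 fold change of a chromosome's genes was lowest on chromosomes 4 (-0.528), 12 (-0.512), 13 (-0.484), 19 (-0.459) and 7 (-0.417), and highest on 14 (0.481), 16 (0.470), 9 (0.429), 3 (0.409) and 10 (0.392). Much of this was shared with clone 1, which is set against the same control libraries. In clone 1 chromosomes 4, 12, 19 and 7 were at -0.491, -0.385, -0.448 and -0.427. Chromosomes 14, 16, 3 and 10 were at 0.609, 0.229, 0.512 and 0.406 there. On chromosome 4, 548 of 848 tested genes (64.6%) were lower, and on chromosome 16, 274 of 443 (61.9%) were higher. Chromosome 13 had a median of the other sign in clone 1, 0.167: 321 of its 550 genes (58.4%) were lower in clone 2, and it held 32 of the 219 distinctly lower genes. Chromosomes 1, 6 and 9 had medians of 0.046, 0.095 and 0.429 in clone 2 and -0.291, -0.240 and 0.085 in clone 1. How much of a list's median lies in the chromosomes its members sit on was not tested.

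**Figure D5:**
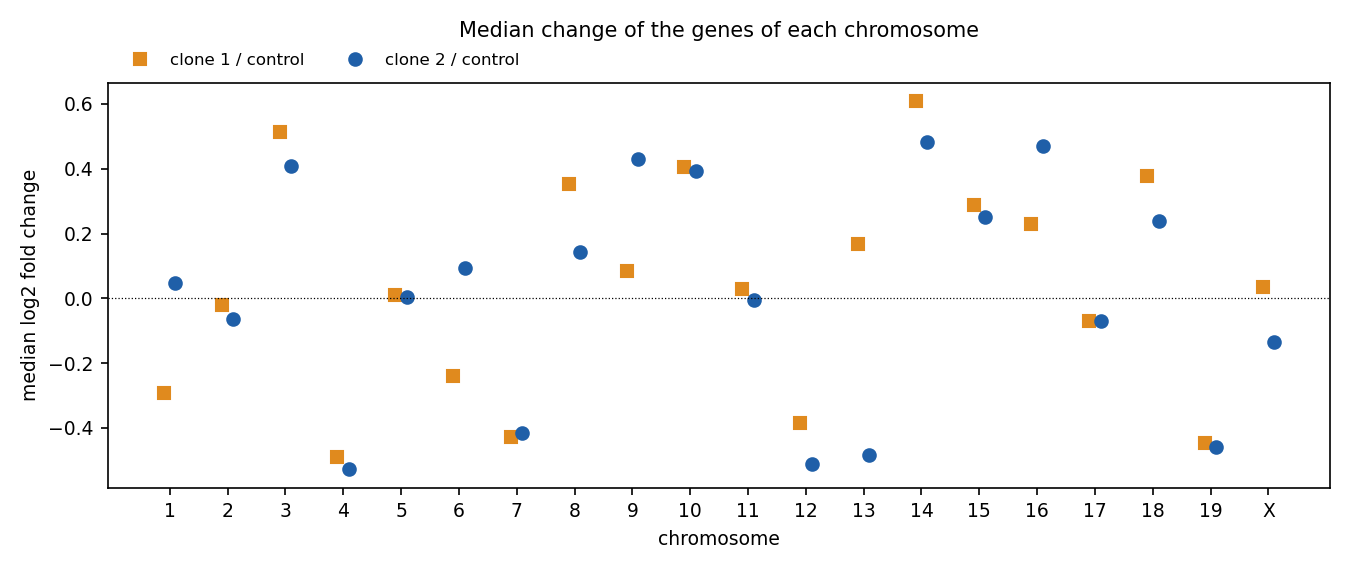
Median log2 fold change against the control of the tested genes of each chromosome, for clone 1 (squares) and clone 2 (circles), which share the control libraries. Chromosomes 4, 12, 13, 19 and 7 lie lowest in clone 2, and chromosome 13 lies at -0.484 in clone 2 and 0.167 in clone 1.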

How the data were processed

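Total RNA of BG2 cells was sequenced as stranded, polyA-enriched libraries, per the labels' protocols. The authors deposited whole-number counts per gene for 9 libraries, the unit used here. The submitters' processing notes name fastp, Subread, DESeq2 and the builds mm10 and GRCm38; versions, aligner settings, annotation and strand setting: not given in the sources used here. A build's repeats, paralogs and overlapping genes could therefore be counted in ways that cannot be checked.

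Genes were matched by Entrez ID, and 24 without a symbol (at most 0.202% of counts) were left out. edgeR 4.0.16 (R 4.3.3) fitted 3 groups over all 9 libraries by quasi-likelihood after filterByExpr (minimum count 10) and TMM scaling, with Benjamini-Hochberg adjustment over 13918 genes and a threshold of 0.05. glmTreat tested changes beyond a log2 fold change of 1. On simulated counts for clone 2 against control over the same 13918 genes, a 1.5-fold change was found for 55 of 67 genes, a 2-fold change for 63 of 67 and a 4-fold change for 66 of 66, and 14 of 198 calls were false. Only these few genes were changed, drawn from genes above a minimum expected count. Clone 1 was drawn at the control level, and no deviation of replicate 1 was simulated. Rates for scarce genes, or where most genes change as here, were not tested. Libraries with the same number deviated together (correlations 0.114 to 0.501), and those with different numbers at -0.423 to 0.291. Every same-numbered pair lay above 0.1, but some differently numbered pairs of replicates 2 and 3 lay higher than same-numbered ones. Replicate 1 thus stands apart, while the numbers do not tell replicates 2 and 3 apart. The main fit, which gave the standard errors and p-values, did not use the number, and a fit with it as a block was an alternative. Others were DESeq2 1.42.0, total counts in place of TMM, no filter, a stricter filter (1 CPM in 3 libraries), only the 6 libraries, and leaving out each library.

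The 46 gene lists (1503 entries, 1454 different genes, 1223 tested), the markers and the rules were chosen with earlier results of these data known. Genes were named by rule: Sox10, the 12 largest rises and 12 largest falls, the 12 most distinct each way, the 8 largest gains and 8 largest losses per kilobase, and in each list up to 6 with the largest change, 3 changed the other way and 2 abundant ones that did not pass. Markers and genes called in opposite directions were named too. Members of short counts of distinct genes, and Serpina3g, Serpina3n, Sfrp1 and Notum, were named after their values were seen. Some genes that these rules pick are not reported here.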

Additional observations from a re-analysis of the deposited data

Results flagged for a closer look

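Of the genes named above, 7 differed between the clones in direction: each was higher than the control in one clone and lower in the other, beyond 2-fold by glmTreat in both, and clone 2 differed from clone 1 by the same test. Genes opposite only at an adjusted p under 0.05, such as Ccne1 and Pmaip1, are not counted. Over all tested genes glmTreat called 62 (0.445%) in opposite directions, 32 higher and 30 lower in clone 2. The differences below are clone 2 minus clone 1 on the log2 scale, and where clone 1 had 0 counts they depend on the model's prior count and are no bounds.

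Fxyd6 differed by 14.72, with 0.688 ± 0.168 CPM in unedited cells, no counts in clone 1 and 45.3 ± 2.197 in clone 2. Pla2r1, a receptor of secreted phospholipase A2, differed by 12.93, with 0.297 ± 0.152 CPM in unedited cells, no counts in clone 1 and 13.04 ± 1.22 in clone 2. Irak3 differed by 12.71, with 0.178 ± 0.103 CPM in unedited cells, no counts in clone 1 and 11.2 ± 0.568 in clone 2. Against the floor of 3 counts in clone 1 these were at least 3191-fold higher, at least 922-fold higher and at least 789-fold higher in clone 2. Ccnd2 differed by 9.57, with 0.0442 ± 0.0134 CPM in unedited cells, no counts in clone 1 and 1.27 ± 0.1205 in clone 2. It had only 10 counts in all over the control libraries, so its fall in clone 1 rests on scarce counts near the floor. Lpl differed by 8.43, with 0.595 ± 0.252 CPM in unedited cells, 0.07999 ± 0.08202 in clone 1 and 28.3 ± 2.87 in clone 2. These 5 genes were higher in clone 2 than in the control.

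The other two were lower in clone 2 than in the control and higher in clone 1. The zinc finger gene Zfp704 differed by -8.62, with 2.14 ± 0.3199 CPM in unedited cells, 7.28 ± 1.11 in clone 1 and 0.01603 ± 0.0278 in clone 2. Efna2, an ephrin ligand, differed by -5.51, with 0.271 ± 0.0655 CPM in unedited cells, 1.61 ± 0.376 in clone 1 and 0.0329 ± 0.0365 in clone 2.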

How the results depend on the processing

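Every count of differing or distinct genes stayed within 1.5 times its value under every alternative run. With the replicate block 5651 genes were higher and 5601 lower than in the control, and 308 of the 310 and 215 of the 219 distinct genes were shared; the block changed no other call of a named gene than that of Gapdh. DESeq2 called 5056 genes higher and 5288 lower and shared 253 and 188 of the distinct genes. Leaving out 1 library gave 4891 to 5096 higher, 4862 to 5395 lower, and 272 to 312 and 198 to 219 distinct genes. No named gene reversed. Scarce genes and the few members of a list limit the medians, and where these moved by more than the spread between replicates the cause was not tested beyond the changed set of genes.

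Without a filter, which adds scarce genes, growth factor receptors reversed to -0.859 and growth factors to -0.090. Notch (-0.459) and Wnt (-0.187) also turned sign from medians near 0. Other list medians were ATF4 targets 0.445, Bcl2 family -0.766, axon guidance -0.341, cholesterol -0.435, contractile 0.192, junctions -4.163, fatty acid -0.485, imprinted 0.052, lysosome 0.611 and matrix glycoproteins 1.011. Families were C 0.729, Cfap 0.431, Cyp -0.759, Il 0.210, Serpinb 3.895 and Vmn 0, and chromosomes 10, 15, 17, 19, 3, 5, 6 and 9 were 0.325, 0.205, -0.099, -0.483, 0.325, -0.033, 0 and 0.381.

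Under the stricter filter cytokines reversed to 0.589. Other lists were DNA replication -0.090, Hox -3.528, Bcl2 family -0.274, contractile 0.164, junctions -4.185, glycolysis 0.277, imprinted 0.248, integrins -0.586, interferon -0.644, lysyl oxidases 2.152 and matrix glycoproteins 1.273. Families were C 0.779, H -0.292, Serpinb 2.015, Tspan -0.149 and Vmn 4.583, and chromosomes 17, 19 and 4 were -0.096, -0.498 and -0.560. With the 6 libraries alone Hox was -3.473, imprinted 0.284 and matrix glycoproteins 1.305, and with DESeq2 the endoplasmic reticulum list was 0.781.

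Leaving out 1 library reversed EMT factors (-0.123 to 0.223). Other ranges were ATF4 targets 0.518 to 0.636, DNA replication -0.093 to -0.035, ERK feedback -0.078 to 0.085, axon guidance -0.357 to -0.206, basal 2.058 to 2.495, contractile 0.169 to 0.360, cytokines -0.605 to -0.387, endoplasmic reticulum 0.735 to 0.853, junctions -4.445 to -4.279, glycolysis 0.133 to 0.228, growth factors 0.083 to 0.219, imprinted 0.283 to 0.435, mucins 0.069 to 0.176 and the tricarboxylic acid cycle 0.415 to 0.584. All other medians stayed within the spread between replicates, though that of neural crest genes, whose spread is wide, ran from -0.444 to -0.018.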

Other observations

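Transporters of amino acids and of betaine rose more often than they fell. In clone 1 the median of this list was 1.41, larger than in clone 2. Of the amino acid, betaine and neurotransmitter transporters, 16 of 22 tested genes were higher in clone 2, 5 lower and 1 did not pass (median log2 fold change 0.67). Slc7a2, a transporter of arginine, stood at 2.24, 1.96 and 1.87 CPM in unedited cells and 153, 123 and 137 in clone 2 (6.09 ± 0.11). Slc38a1, of glutamine, stood at 2.94, 2.67 and 2.92 CPM in unedited cells and 112, 118 and 119 in clone 2 (5.36 ± 0.06). Every clone 2 library was above the control for both. Slc1a3, a glutamate transporter, rose from 0.00825 ± 0.0143 CPM in unedited cells to 2.92 ± 0.2802 in clone 2, against 15.1 ± 0.205 CPM in clone 1. Slc6a6, the taurine transporter gene, fell from 448 ± 36.3 CPM in unedited cells to 142 ± 3.73 in clone 2 (-1.66 ± 0.06), and Slc1a5, of glutamine and neutral amino acids, by 0.76 ± 0.07.

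Of the potassium, sodium and calcium channels, 11 of 31 tested genes were higher in clone 2, 12 lower and 8 did not pass (median log2 fold change -0.23); the median was -0.351 under the stricter filter. Kcnh2, a cardiac potassium channel gene, rose from 0.3399 ± 0.0802 CPM in unedited cells to 11.3 ± 0.633 in clone 2 (5.03 ± 0.16). Scnn1a, a subunit of the epithelial sodium channel, fell from 175 ± 31.9 CPM in unedited cells to 1.58 ± 0.126 in clone 2 (-6.79 ± 0.15). Kcnk5, a leak potassium channel, fell from 4.93 ± 0.437 CPM in unedited cells to no counts in clone 2, at least 391-fold lower. Kcnj2, an inward rectifier, fell from 14.7 ± 1.402 CPM in unedited cells to 0.0409 ± 0.0497 in clone 2. Cacnb3, a calcium channel subunit, stood at 125 ± 8.16 CPM in unedited cells and 123 ± 5.86 in clone 2 and did not pass.

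Of the mucins and glycan-building enzymes, 15 of 33 tested genes were higher in clone 2, 15 lower and 3 did not pass (median log2 fold change 0.18); the median was 0.069 without control replicate 2. Galnt3, which starts mucin-type glycans, fell from 73.2 ± 6.38 CPM in unedited cells to no counts in clone 2, at least 5760.2-fold lower. B3gnt3, which extends them, fell from 129 ± 9.36 CPM in unedited cells to 0.278 ± 0.164 in clone 2 (-8.83 ± 0.21). Gcnt3, which branches them, fell from 194 ± 1.75 CPM in unedited cells to 0.971 ± 0.205 in clone 2 (-7.63 ± 0.13). Gcnt3 was also lower than the 2.66 ± 0.394 CPM in clone 1. St6galnac4 and St6galnac6, sialyltransferases, rose by 3.48 ± 0.07 and 2.57 ± 0.08, and Mgat3, which adds the bisecting sugar of N-glycans, by 2.81 ± 0.11. Galnt11 stood at 13.4 ± 0.193 CPM in unedited cells and 13.98 ± 1.03 in clone 2 and did not pass.

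Of the imprinted genes and X inactivation transcripts, 6 of 14 tested genes were higher in clone 2, 5 lower and 3 did not pass (median log2 fold change 0.42); the median was 0.052 without a filter on low counts, 0.248 under the stricter one and 0.283 without control replicate 2. Phlda2, an imprinted growth inhibitor of placenta, fell from 7.63 ± 0.6101 CPM in unedited cells to 0.0564 ± 0.0473 in clone 2 (-7.07 ± 0.33) and had 0 counts in clone 1. Igf2r, which clears insulin-like growth factor 2, fell from 224 ± 12.9 CPM in unedited cells to 135 ± 16.4 in clone 2 (-0.72 ± 0.08). Kcnq1ot1, the long RNA of the cluster that holds Phlda2, rose from 0.8399 ± 0.155 CPM in unedited cells to 1.94 ± 0.635 in clone 2 (1.22 ± 0.27). Ftx, a non-coding transcript of the X inactivation centre, rose by 0.83 ± 0.16.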
